A study of Mus musculus with 12 samples.

Results

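The genotypes' responses to imiquimod (IMQ) in skin were compared gene by gene, as the log2 change between untreated skin and skin on day 2 of IMQ treatment in Ahr-/- mice minus the same change in Ahr+/- mice. A value of 0 means that the gene changed by the same factor in both genotypes, and a value of 1 that its change was 2-fold greater, or its fall 2-fold smaller, in Ahr-/- skin. All 18193 of the 18193 genes with a probe set annotated to that gene alone were included, each through the set with the highest mean signal, and all 12 arrays entered every value. There were 3 arrays in each of 4 groups, which the labels call AhR HET untreated, AhR KO untreated, AhR HET 2d Imiquimod and AhR KO 2d Imiquimod. *Ahr* was lacking from every cell of the Ahr-/- mice, which came from a mixed B6 and 129 stock, and the controls were heterozygous littermates that themselves carry 1 mutant allele. Treated mice received a daily layer of Aldara cream, which contains imiquimod, on shaved back skin, whereas untreated mice received no cream, so the drug, its vehicle and the handling cannot be told apart. The ages of the mice on the arrays were not given in the sources used here. Each array measured total RNA of whole skin, in which more cells of a type and more RNA per cell cannot be told apart.

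The aryl hydrocarbon receptor (AhR) is a transcription factor that small molecules activate, among them dietary indoles and products of tryptophan. On binding a ligand it enters the nucleus, pairs with ARNT and induces genes of xenobiotic metabolism such as *Cyp1a1*. Imiquimod stimulates TLR7, and repeated application to mouse skin brings epidermal thickening, disturbed cornification and an influx of neutrophils. A difference of responses asks whether the skin without AhR reacts to this treatment differently, over and above any difference that was already there without treatment.

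Epidermal and dermal genes were high on all 12 arrays, with log2 signals of 12.82 to 13.84 for *Krt5* and of 13.75 to 14.55 for *Col3a1*. *Xist* was at 12.4 or more and 3 Y-linked genes at 4.49 or less on all 12 arrays. The *Ahr* signal was 10.11 to 11.3 in untreated Ahr+/- and 11.29 to 11.44 in untreated Ahr-/- skin, and because the position of its probe set relative to the deletion was not determined, it did not check the genotype labels. Replicates 1 and 2 of the IMQ-treated Ahr-/- group stood apart in RNA quality, with log2 differences between the 3' and 5' *Gapdh* control sets of 1.17 and 1.52, where the other 10 arrays had 0.14 to 0.53. Replicate 2 of the untreated Ahr+/- group stood apart in hair follicle genes, with a mean signal of 11.85 over 25 of them where the other 11 arrays had 5.52 to 7.87. Replicate 1 of the IMQ-treated Ahr+/- group had the strongest inflammatory signals of its group. For example, it had a mean of 8.4 over 10 genes of neutrophil chemokines, a receptor and colony-stimulating factors, where replicates 2 and 3 had 7.12 and 6.1.

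The response to IMQ was higher in Ahr-/- than in Ahr+/- skin for 98 genes, which is 0.539% of all genes tested, and lower for 143 genes, or 0.786% (limma, Benjamini-Hochberg adjusted p under 0.05 and a difference of at least 1.5-fold). Together these are 1.32% of the 18193 genes. The median difference over all genes was 0.05, and 90% of genes lay between -0.95 and 0.75. At an unadjusted p under 0.05 there were 1363 genes higher and 1822 lower. With 3 arrays a group, the standard error of a difference had a median of 0.257, and a gene with that error needed a log2 difference of 1.16 to be called. The p-values measure the spread between the arrays of a group, which the labels tell apart by a number, pooled over the 4 groups.

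**Figure D1:**
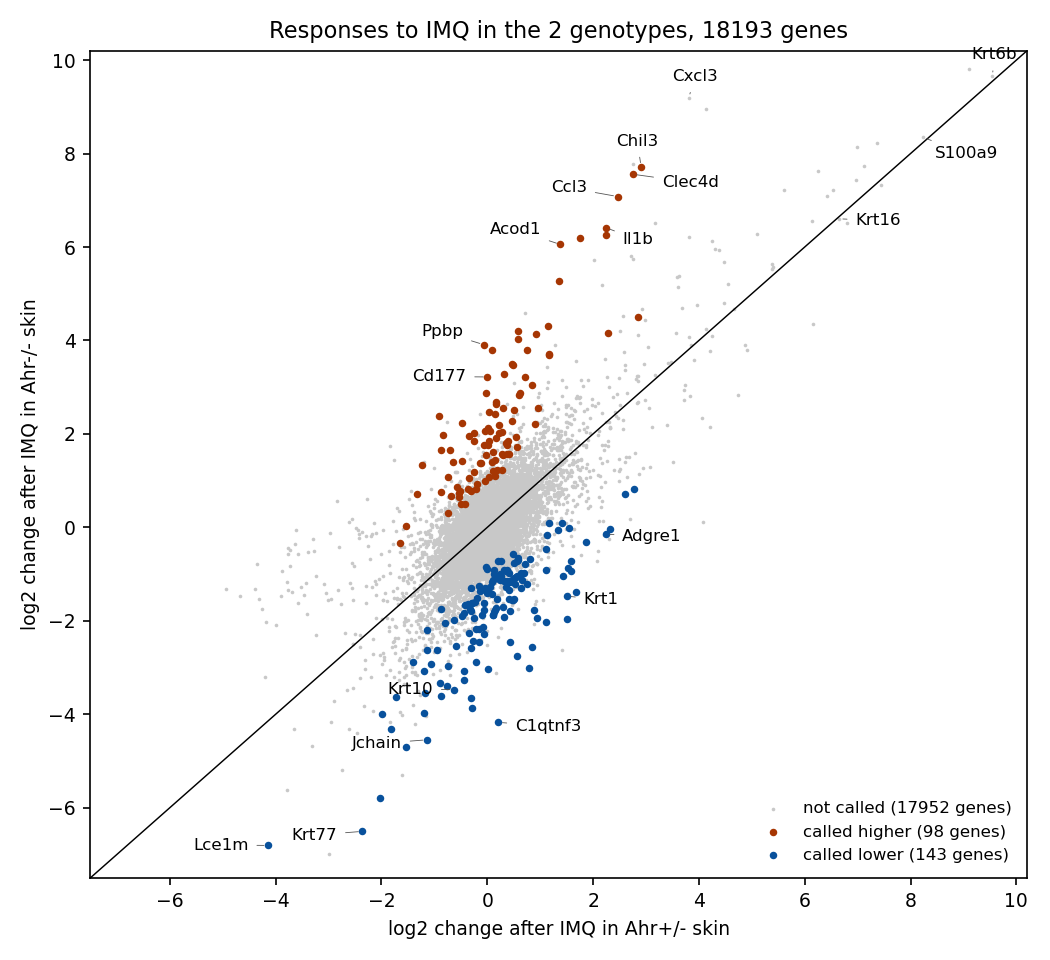
Log2 change after 2 days of IMQ in Ahr+/- skin (x axis) and in Ahr-/- skin (y axis) for 18193 genes, with the line of equal change. The 98 genes called higher lie above the line and the 143 called lower lie below it, while *Krt6b*, *Krt16* and *S100a9*, which had some of the greatest changes, lie close to the line.

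Among the 98 genes called higher, the median difference was 1.85 (range 0.92 to 4.81). Their median log2 change after IMQ was 0.13 in Ahr+/- skin and 1.92 in Ahr-/- skin. Among the 143 genes called lower, the median difference was -1.73 (range -4.38 to -0.83), with median changes after IMQ of 0.14 in Ahr+/- and -1.54 in Ahr-/- skin. The changes in Ahr+/- skin ran in both directions, from -1.64 to 2.91 among the genes called higher and from -4.14 to 2.78 among those called lower. The counts depended on single arrays, and they fell to 22 higher and 9 lower without replicate 1 of untreated Ahr-/- skin and to 23 and 11 without replicate 2 of IMQ-treated Ahr+/- skin. With the *Gapdh* 3'/5' difference as a covariate 11 genes were called higher and 1 lower, and with replicate 3 as the sole IMQ-treated Ahr-/- array 15 and 3 were called. All 241 genes kept the sign of their difference in both of these fits, and their medians were 1.79 and -1.54 with the covariate and 1.85 and -1.56 with replicate 3 alone. The 241 genes were selected for large differences on these same arrays, so the kept signs and medians are no independent check.

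Genes of activated neutrophils, monocytes and macrophages had the largest called differences. On a list of such genes, 7 of 14 measured members were called higher and 0 lower, and the median difference of the list was 2.77. All 7 encode receptors or effectors of innate immunity. *Clec4d* and *Clec4e* encode C-type lectins that sense microbial and damaged-cell ligands, *Trem1* and *Trem3* receptors that amplify inflammatory signals, *Cd14* a co-receptor for lipopolysaccharide, *Acod1* the enzyme that makes itaconate, and *Chil3* a secreted chitinase-like protein.

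*Clec4d* had log2 signals of 4.82, 4.96 and 4.95 on the untreated and 9.14, 7.3 and 6.53 on the IMQ-treated Ahr+/- arrays (replicates 1, 2 and 3 in this order here and below). In Ahr-/- skin the signals were 4.08, 4.72 and 5.5 without and 12.07, 12.76 and 12.15 with IMQ. The untreated groups overlapped, and each IMQ-treated Ahr-/- array was above each of the other 9. Its difference of responses was 4.81 (standard error 0.74, limma adjusted p = 0.0135), from a change of 2.75 in Ahr+/- and of 7.56 in Ahr-/- skin.

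*Chil3* had the same difference, 4.81, with a wider spread (standard error 1.03, adjusted p = 0.0446). Its signals in IMQ-treated skin were 9, 6.64 and 5.18 in Ahr+/- and 12.77, 11.46 and 10.87 in Ahr-/- mice, against 3.69 to 4.35 on the 6 untreated arrays. Replicate 1 was the highest array in both treated groups. *Acod1* was at 7.73, 5.95 and 5.36 in IMQ-treated Ahr+/- skin and at 10.89, 11.34 and 11.51 in IMQ-treated Ahr-/- skin, with 4.66 to 5.46 on the untreated arrays. The difference of responses of *Acod1* was 4.67 (standard error 0.63, adjusted p = 0.00576).

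The promoters of these 3 genes are shown because they had the largest positive called differences among genes that the RefSeq table for GRCm38.p6 holds a promoter for. Each runs 5' to 3' on the gene's strand from 250 bases before to 50 bases after the start of transcription, and capitals would mark a match to 1 of 4 motifs searched on both strands: GCGTG, the core bound by AhR with ARNT, TGANTCA (AP-1), GGGANTTTC (NF-kB) and TTGCNNAA (C/EBP). There were 0 matches in all 3 windows. *Clec4d* lies at chr6:123261857-123262156 on the plus strand, *Chil3* at chr3:106167515-106167814 on the minus strand and *Acod1* at chr14:103046762-103047061 on the plus strand.
Clec4d: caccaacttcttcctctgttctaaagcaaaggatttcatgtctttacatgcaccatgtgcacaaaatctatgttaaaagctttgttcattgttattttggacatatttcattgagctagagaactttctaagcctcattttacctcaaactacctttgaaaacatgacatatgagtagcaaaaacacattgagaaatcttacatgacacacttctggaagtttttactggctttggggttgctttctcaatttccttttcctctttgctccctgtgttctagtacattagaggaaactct
Chil3: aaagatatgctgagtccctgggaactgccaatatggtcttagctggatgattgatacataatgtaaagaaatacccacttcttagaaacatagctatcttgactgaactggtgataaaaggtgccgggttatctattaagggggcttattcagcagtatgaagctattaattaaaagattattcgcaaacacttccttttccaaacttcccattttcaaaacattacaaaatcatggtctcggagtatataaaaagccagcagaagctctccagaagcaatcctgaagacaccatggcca
Acod1: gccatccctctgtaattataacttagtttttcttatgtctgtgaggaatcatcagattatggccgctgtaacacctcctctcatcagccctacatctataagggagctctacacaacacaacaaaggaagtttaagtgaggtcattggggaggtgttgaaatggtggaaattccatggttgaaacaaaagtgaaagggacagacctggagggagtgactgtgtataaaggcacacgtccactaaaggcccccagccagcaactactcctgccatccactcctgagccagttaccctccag

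Across all 14452 genes with a promoter in the table, 44.2% of windows held GCGTG, against 25.4% of the 71 windows of genes called higher and 38.2% of the 110 of genes called lower. TTGCNNAA was found in 9.04% of all windows, in 14.1% of those called higher and in 9.09% of those called lower. For TGANTCA the shares were 6.33%, 7.04% and 5.45%, and for GGGANTTTC 1.09%, 1.41% and 2.73%. The last 2 motifs occur in 1 to 6 called windows each, and none of these shares was tested.

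*Trem1* separated the groups with little spread. Its signals were 5.34, 5.68 and 5.85 in untreated and 6.82, 5.93 and 5.86 in IMQ-treated Ahr+/- skin, and 5.45, 5.23 and 5.21 in untreated and 9.19, 9.43 and 9.39 in IMQ-treated Ahr-/- skin. The 3 knockout arrays after IMQ lay more than 2 log2 units above the other 9, and the difference of responses was 3.46 (standard error 0.33, adjusted p = 0.00127). *Clec4e* had a difference of 4.43, *Cd14* of 3.06 and *Trem3* of 2.5. *Arg1*, *Nos2* and *Clec4n* on the same list were not called, with differences of 0.17, 0.21 and 0.6.

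The list's mean signal was 6.71 to 7.99 on the IMQ-treated Ahr+/- arrays and 9.82 to 9.96 on the IMQ-treated Ahr-/- arrays, and 5.95 to 6.61 on the 6 untreated ones. Its count of 7 fell to 1 of 14 with the *Gapdh* covariate and with replicate 3 alone of the treated knockout, to 4 with the hair follicle mean as a covariate or without replicate 3 of IMQ-treated Ahr+/- skin, to 2 without replicate 1 of untreated Ahr-/- or replicate 2 of IMQ-treated Ahr+/- skin, and to 3 without replicate 2 of IMQ-treated Ahr-/- skin. The list's median was 2.51 and 2.54 in the first 2 of these fits.

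**Figure D2:**
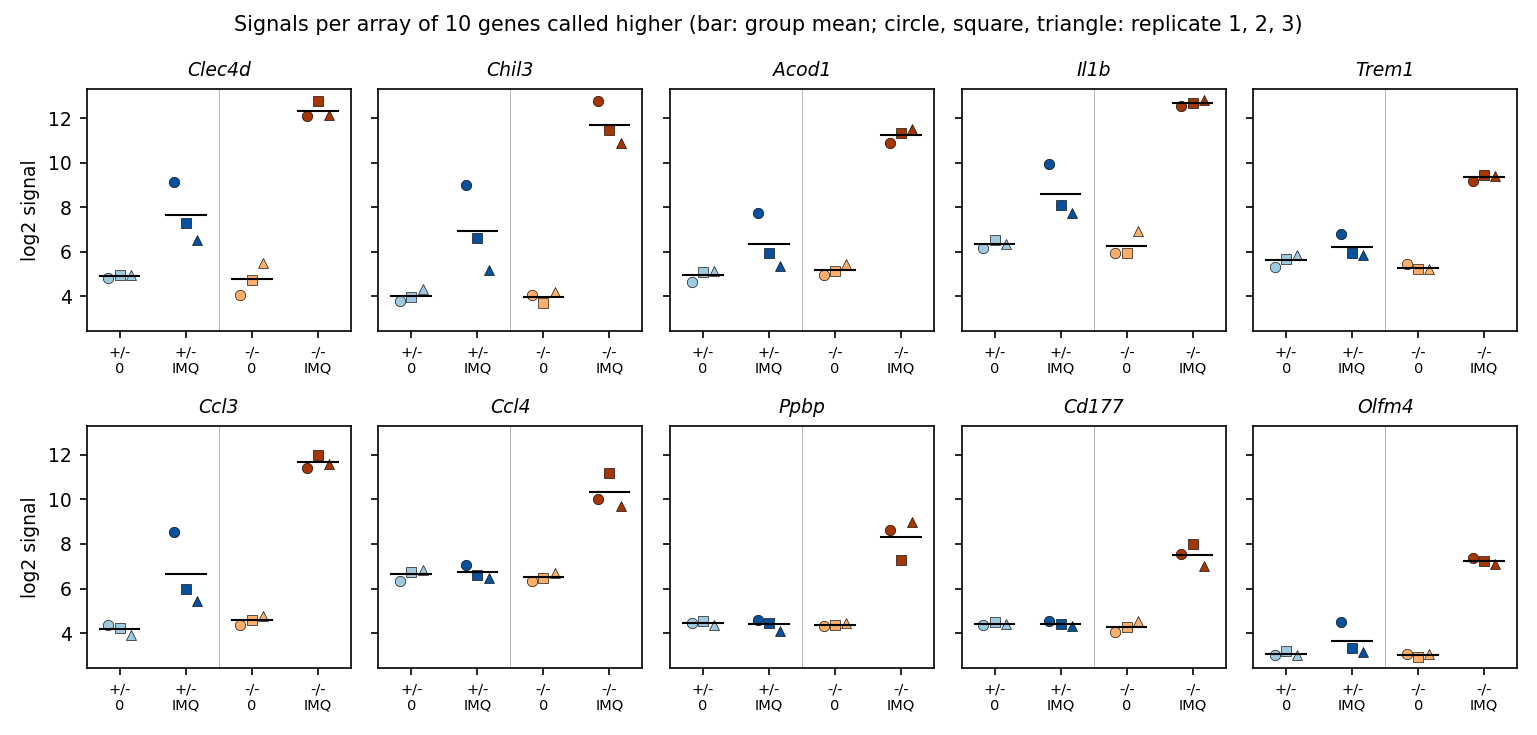
Log2 signal (y axis) on each of the 12 arrays for 10 genes called higher, by group (x axis: Ahr+/- untreated and IMQ, Ahr-/- untreated and IMQ), with bars at group means and symbols for replicates 1, 2 and 3. In each panel the 3 arrays of IMQ-treated Ahr-/- skin lie above the other 9, and replicate 1 is the highest of the 3 IMQ-treated Ahr+/- arrays.

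Neutrophil genes followed. Of 11 measured members of the neutrophil list, *Hdc*, *Mmp9*, *Csf3r* and *Ngp* were called higher and 0 lower, and the median difference was 1.75. *Hdc* encodes the histamine-forming enzyme and *Csf3r* the receptor for the neutrophil growth factor G-CSF, while *Mmp9* and *Ngp* encode granule proteins. The mean signal of the list was 6.41 to 7.27 in IMQ-treated Ahr+/- and 8.32 to 8.48 in IMQ-treated Ahr-/- skin. None of the other members was called. *Elane*, *Mpo*, *Ltf* and *Camp* had differences of 0.35, 0.22, 0.72 and 0.87, and *Mmp8* and *Fpr2* of 3.71 and 1.75. *Itgam* had the 1 negative difference of the list, -1.21. The 4 calls fell to 0 with the *Gapdh* covariate or with replicate 3 alone, to 1 with the hair follicle mean as a covariate, without replicate 2 of IMQ-treated Ahr+/- skin or without replicate 2 of IMQ-treated Ahr-/- skin, and to 2 without replicate 1 of untreated Ahr-/- skin. They rose to 6 without replicate 1 of untreated Ahr+/- skin.

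*Hdc* had signals of 9.11, 7.6 and 7.18 in IMQ-treated Ahr+/- and of 11.6, 12.02 and 11.51 in IMQ-treated Ahr-/- skin, against 5.33 to 5.88 on the 6 untreated arrays. The 2 treated groups did not overlap, and the difference of responses was 4.02 (standard error 0.52, adjusted p = 0.00515). *Mmp9* had a change of -0.48 in Ahr+/- and of 2.24 in Ahr-/- skin, and a difference of 2.72 (adjusted p = 0.042). Its untreated Ahr+/- signals of 8.02, 6.14 and 6.93 spread more widely than those after IMQ in the same genotype, 7.24, 6.46 and 5.94.

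Other genes of neutrophils, myeloid cells or blood cell precursors that are outside this list were also called higher. They were picked from among the called genes, so they do not add support to the list. *Nfe2* and *Cd300lf* were named after their values were seen. *Cd177*, a surface protein of neutrophils, was at 4.53, 4.42 and 4.33 in IMQ-treated Ahr+/- skin, inside the 4.07 to 4.54 of the untreated arrays, and at 7.54, 7.98 and 7.01 in IMQ-treated Ahr-/- skin. The difference of responses of *Cd177* was thus 3.22 (standard error 0.3, adjusted p = 0.00127) with no measured change in the heterozygous skin (0.00). *Olfm4*, a granule protein of a subset of neutrophils, was at 2.94 to 3.18 on the untreated arrays, at 4.5, 3.34 and 3.17 in treated Ahr+/- and at 7.36, 7.22 and 7.11 in treated Ahr-/- skin (difference 3.61, standard error 0.38, adjusted p = 0.00162). *Nfe2*, which encodes a transcription factor of blood cell precursors, had a difference of 2.91 (adjusted p = 0.00162). *Mcemp1* and *Cd300lf*, which encode myeloid membrane proteins, had differences of 3.23 and 3.17.

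Chemokines that attract neutrophils had some of the largest differences of all, but with a spread in Ahr+/- skin that left most of them uncalled. *Ppbp*, which encodes CXCL7, was the 1 member called of 10 measured on their list. This list also holds the receptor gene *Cxcr2* and the colony-stimulating factor genes *Csf1*, *Csf2* and *Csf3*, and its median difference was 2.15. Signals of *Ppbp* were 4.61, 4.47 and 4.11 in IMQ-treated Ahr+/- skin, where the 6 untreated arrays had 4.32 to 4.55, and 8.62, 7.27 and 9 in IMQ-treated Ahr-/- skin. The difference of responses of *Ppbp* was 3.97 (standard error 0.47, adjusted p = 0.0027).

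*Cxcl3* had the largest positive difference of the 18193 genes, 5.38, and did not pass (standard error 1.52, adjusted p = 0.1). It was at 10.18, 6.06 and 3.73 in IMQ-treated Ahr+/- skin and at 12.03, 11.87 and 11.85 in IMQ-treated Ahr-/- skin, so that the heterozygous arrays ran from near the untreated level, 2.66 to 2.88, almost to that of the knockout. *Cxcl5* had the same form, with 8.77, 5.4 and 2.97 against 10.94, 10.29 and 11.84 (difference 5.03, adjusted p = 0.0981), and so did *Cxcl2*, with 10.67, 7.82 and 5.99 against 13.42, 13.57 and 13.17 (difference 4.82, adjusted p = 0.0569). In each case the treated groups did not overlap. Without replicate 1 of IMQ-treated Ahr+/- skin 7 of the 10 genes of this list were called, and the median of the list was 2.71. *Csf3*, *Cxcl1* and *Csf2* had differences of 2.61, 1.69 and 0.01, and none of these 3 passed.

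Of 21 CC chemokines and their receptors, *Ccl3* and *Ccl4* were called higher and 0 lower, and the median of the list, 0.12, was near that of all genes. These 2 genes encode MIP-1 alpha and MIP-1 beta, chemokines made by activated myeloid cells and lymphocytes. *Ccl3* was at 8.54, 5.98 and 5.43 in IMQ-treated Ahr+/- and at 11.4, 11.99 and 11.57 in IMQ-treated Ahr-/- skin (difference 4.62, standard error 0.81, adjusted p = 0.0207). *Ccl4* was at 7.08, 6.63 and 6.48 in treated Ahr+/- skin, where the 6 untreated arrays had 6.34 to 6.82, and at 10.04, 11.2 and 9.69 in treated Ahr-/- skin (difference 3.7, standard error 0.44, adjusted p = 0.00291). *Ccl20*, the ligand of CCR6, had a difference in the other direction that did not pass (-2.11, adjusted p = 0.14). Those of *Ccl2* and *Ccl7*, which attract monocytes, were 0.12 and 0.32.

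Of the IL-1 family, 2 of 12 measured genes were called higher, the cytokine gene *Il1b* and the receptor gene *Il1r1*, and 0 lower, with a list median of -0.2. *Il1b* was at 9.95, 8.08 and 7.74 in IMQ-treated Ahr+/- skin and at 12.55, 12.69 and 12.81 in IMQ-treated Ahr-/- skin, against 5.94 to 6.92 without treatment. Its difference of responses was 4.17 (standard error 0.64, adjusted p = 0.0131). *Il1r1* was at 10.09, 9.48 and 9.1 in treated Ahr+/- and at 11.33, 10.91 and 10.94 in treated Ahr-/- skin (difference 1.75, standard error 0.33, adjusted p = 0.0276). Its other probe set gave 0.21. *Il1r1* was called in 4 of the 12 fits that left out 1 array. With the *Gapdh* and the hair follicle covariate its differences were 1.7 and 1.69, and it was not called. *Il1a* and the antagonist gene *Il1rn* had differences of 0.16 and -0.05 and were not called. The epithelial members *Il1f6*, *Il1f8* and *Il1f9* had differences of -1.8, -1.67 and -0.96, which did not pass either.

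Other cytokine genes with a called difference were *Osm*, which encodes the IL-6 family member oncostatin M, at 2.28 (standard error 0.26, adjusted p = 0.00221), and *Tnf*, at 1.49 (adjusted p = 0.0174). *Osm* was at 5.72, 5.48 and 5.53 in IMQ-treated Ahr+/- skin and at 7.86, 8.02 and 7.39 in IMQ-treated Ahr-/- skin, and its 6 untreated arrays had 5.16 to 5.7. It was the 1 gene called of 14 genes of IL-6 and IL-10 family cytokines, their receptors and *Socs3*. *Tnf* was the 1 called of 15 genes of TNF, NF-kB subunits and feedback. *Nlrp3* and *Mefv*, sensor genes named after their values were seen, had called differences of 1.04 and 2.28. Of 8 measured genes of the IL-23 and IL-17 axis 0 were called and the median was -0.01. *Il17a* and *Il23a* had differences of -0.14 and 0.42, at signals of 4.88 to 5.6 and 4.41 to 6.83 over the 12 arrays.

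**Figure D3:**
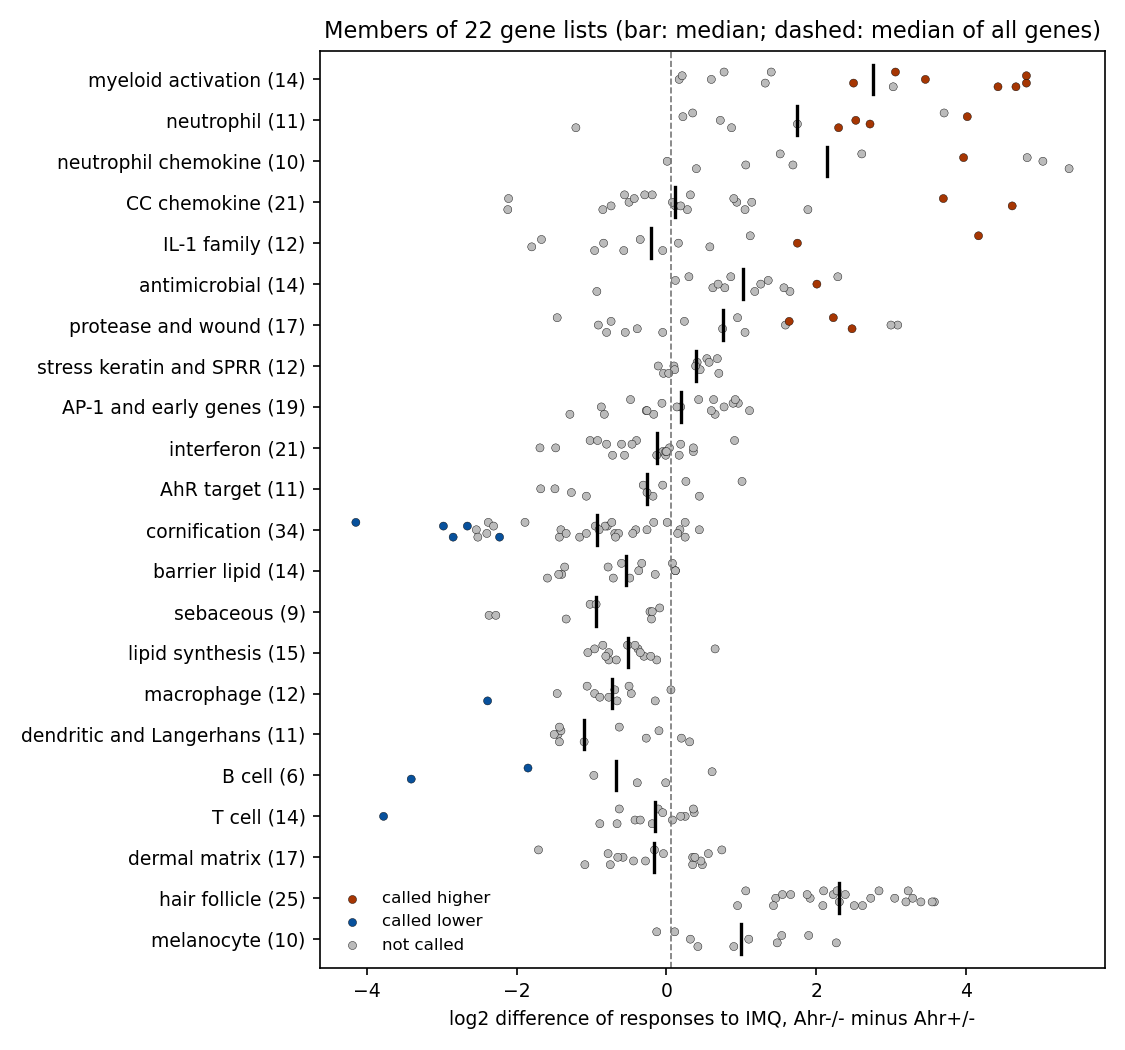
Log2 difference of responses (x axis, Ahr-/- minus Ahr+/-) of each measured member of 22 gene lists (rows, number measured in brackets), with a bar at the median of each list and a dashed line at the median of all genes, 0.05. Myeloid, neutrophil and neutrophil chemokine genes lie to the right and cornification genes to the left, and hair follicle genes lie to the right with 0 of 25 called.

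Antimicrobial genes had positive differences for 13 of 14 members with a median of 1.02, but *Pglyrp1*, a bactericidal granule protein, was the 1 that was called (2.01, standard error 0.27, adjusted p = 0.00576). *S100a8* and *S100a9*, the subunits of calprotectin, had differences of 0.62 and 0.12. Their signals were 13.84 or more on all 6 IMQ-treated arrays, near the top of the range of the arrays, 14.98. Of the 34 genes with mean signals of at least 14 in both treated groups 0 were called, and their differences lay between -0.65 and 0.62. The stress keratin genes *Krt6b* and *Krt16* were among these strongest signals, with differences of 0.11 and -0.04.

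Of 17 genes of proteolysis and wound repair, 3 were called higher and 0 lower, and the median difference was 0.75. *Plaur*, the receptor of urokinase, was at 7.76, 7.22 and 7.1 in IMQ-treated Ahr+/- and at 9.43, 9.83 and 9.86 in IMQ-treated Ahr-/- skin, against 6.62 to 7.01 untreated (difference 2.23, standard error 0.27, adjusted p = 0.0031). The stromelysin gene *Mmp10* had a difference of 2.48 and *Timp1*, which encodes an inhibitor of metalloproteinases, of 1.64. The collagenase gene *Mmp13* and the matrix gene *Tnc* had larger differences that did not pass, 3.09 (adjusted p = 0.122) and 3 (adjusted p = 0.0688). The 3 calls fell to 1 with the *Gapdh* or the hair follicle covariate and without any 1 untreated Ahr-/- array, replicate 2 or 3 of IMQ-treated Ahr+/- or replicate 2 of IMQ-treated Ahr-/- skin, and they rose to 6 without replicate 1 of IMQ-treated Ahr+/- skin. The median of the list was 0.16 without replicate 1 of untreated Ahr+/- and 0.37 without replicate 3 of IMQ-treated Ahr-/- skin.

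*Ankrd1*, which encodes a nuclear cofactor induced by stretch and in wounds, was at 6.54, 6.22 and 5.76 in IMQ-treated Ahr+/- and at 10.58, 9.81 and 10.89 in IMQ-treated Ahr-/- skin, against 4.19 to 5.78 untreated, and was called higher (difference 3.92, standard error 0.54, adjusted p = 0.00624). *Rrad*, a small GTPase gene, had a difference of 3.03 (standard error 0.32, adjusted p = 0.00162), and *Mustn1* and *Xirp1* had differences of 2.19 and 1.76. Of 18 genes of the skeletal muscle list 0 were called, and its median was -0.09. Among single calls in other lists, *Gsr*, which encodes glutathione reductase, was called of 10 NRF2 genes (1.31) and *Bhlhe40*, a repressor of the circadian clock, of 15 clock genes (0.95). *Arg2*, the mitochondrial arginase gene, had a change of -0.91 in Ahr+/- and of 2.38 in Ahr-/- skin (difference 3.29, standard error 0.51, adjusted p = 0.0142).

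In the other direction, the cornification list held more genes called lower than any other of the lists examined, and was also the longest. Of 34 measured genes of the cornification list, 5 were called lower and 0 higher, 28 had a negative difference, and the median was -0.92. The 5 were the keratin genes *Krt1*, *Krt10* and *Krt77*, the desmosomal cadherin gene *Dsg1a* and the late cornified envelope gene *Lce1m*, all of the layers above the basal cells. The mean signal of the list was 9.82 to 10.32 on the untreated arrays, 9.66, 10.9 and 11.09 in IMQ-treated Ahr+/- skin and 9.59, 9.12 and 9.42 in IMQ-treated Ahr-/- skin.

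*Krt77*, a keratin of differentiated interfollicular epidermis, had the second largest called negative difference. Its signals were 13.86 to 14.47 on the 6 untreated arrays, 10.01, 12.67 and 12.8 in IMQ-treated Ahr+/- skin and 8.23, 7.28 and 8.03 in IMQ-treated Ahr-/- skin. All 6 treated arrays were below the untreated ones, the knockout arrays furthest, and the difference of responses was -4.15 (standard error 0.79, adjusted p = 0.0289).

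*Krt1* and *Krt10* encode the keratin pair of the suprabasal layers. *Krt1* was at 12.56, 14.09 and 14.27 in IMQ-treated Ahr+/- skin and at 10.42, 10.68 and 11.45 in IMQ-treated Ahr-/- skin, against 11.21 to 12.69 untreated (difference -2.98, standard error 0.65, adjusted p = 0.0488). *Krt10* was at 12.32, 14.33 and 14.46 in treated Ahr+/- skin and at 10.74, 10.64 and 11.59 in treated Ahr-/- skin, against 14.13 to 14.51 untreated (difference -2.85, standard error 0.63, adjusted p = 0.0496). In both, replicate 1 of the treated Ahr+/- group lay nearest to the knockout arrays.

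*Dsg1a* was at 9.34, 9.22 and 10.65 in IMQ-treated Ahr-/- and at 11.1, 11.69 and 11.88 in IMQ-treated Ahr+/- skin, against 11.53 to 12.09 untreated (difference -2.23, adjusted p = 0.034). *Lce1m* was lower after IMQ in both genotypes, with changes of -4.14 and -6.81 (difference -2.66, adjusted p = 0.0488). *Flg*, *Lor*, *Rptn* and *Hrnr*, which encode proteins of the granular layer and the cornified envelope, had differences of -2.54, -2.31, -2.52 and -2.38 that did not pass. *Krt2* and the *Lce3* genes did not share this direction, with 0.18 for *Krt2* and -0.26 to 0.25 for 4 *Lce3* genes.

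The 5 calls on the cornification list fell to 1 with a variance trend and robust priors or with weights per group, and to 2 with the mean of all probe sets or with adjustment over all probe sets. They fell to 0 with the *Gapdh* covariate, with the hair follicle mean as a covariate, with replicate 3 alone of the treated knockout, and on leaving out replicate 3 of untreated Ahr+/-, any 1 of the untreated Ahr-/- arrays, replicate 2 or 3 of IMQ-treated Ahr+/- or replicate 1 or 2 of IMQ-treated Ahr-/- skin. They fell to 2 without replicate 2 of untreated Ahr+/- skin and rose to 14 without replicate 1 of IMQ-treated Ahr+/- skin. The median of the list stayed between -1.61 and -0.61 over the 12 fits without 1 array, and was -1 and -0.97 with the *Gapdh* covariate and with replicate 3 alone.

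The promoters of *C1qtnf3* and *Krt77*, the 2 genes with the largest negative called differences, are shown as above, from RefSeq on GRCm38.p6. *C1qtnf3* lies at chr15:10952082-10952381 on the plus strand and holds 0 matches. *Krt77* lies at chr15:101869656-101869955 on the minus strand and holds 1 match, to the C/EBP motif on the opposite strand at bases 122 to 129 of the window, in capitals.
C1qtnf3: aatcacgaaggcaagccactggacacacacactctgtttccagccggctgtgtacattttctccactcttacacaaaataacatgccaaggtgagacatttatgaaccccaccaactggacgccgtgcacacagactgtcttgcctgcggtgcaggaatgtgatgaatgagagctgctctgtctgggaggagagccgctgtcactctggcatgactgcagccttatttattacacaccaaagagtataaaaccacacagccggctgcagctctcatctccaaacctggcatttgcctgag
Krt77: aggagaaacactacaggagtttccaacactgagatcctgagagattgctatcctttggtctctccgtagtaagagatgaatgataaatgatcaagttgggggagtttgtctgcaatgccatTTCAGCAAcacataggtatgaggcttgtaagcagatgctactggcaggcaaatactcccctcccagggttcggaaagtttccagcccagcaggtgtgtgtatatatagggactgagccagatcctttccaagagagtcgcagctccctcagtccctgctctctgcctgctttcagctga

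**Figure D4:**
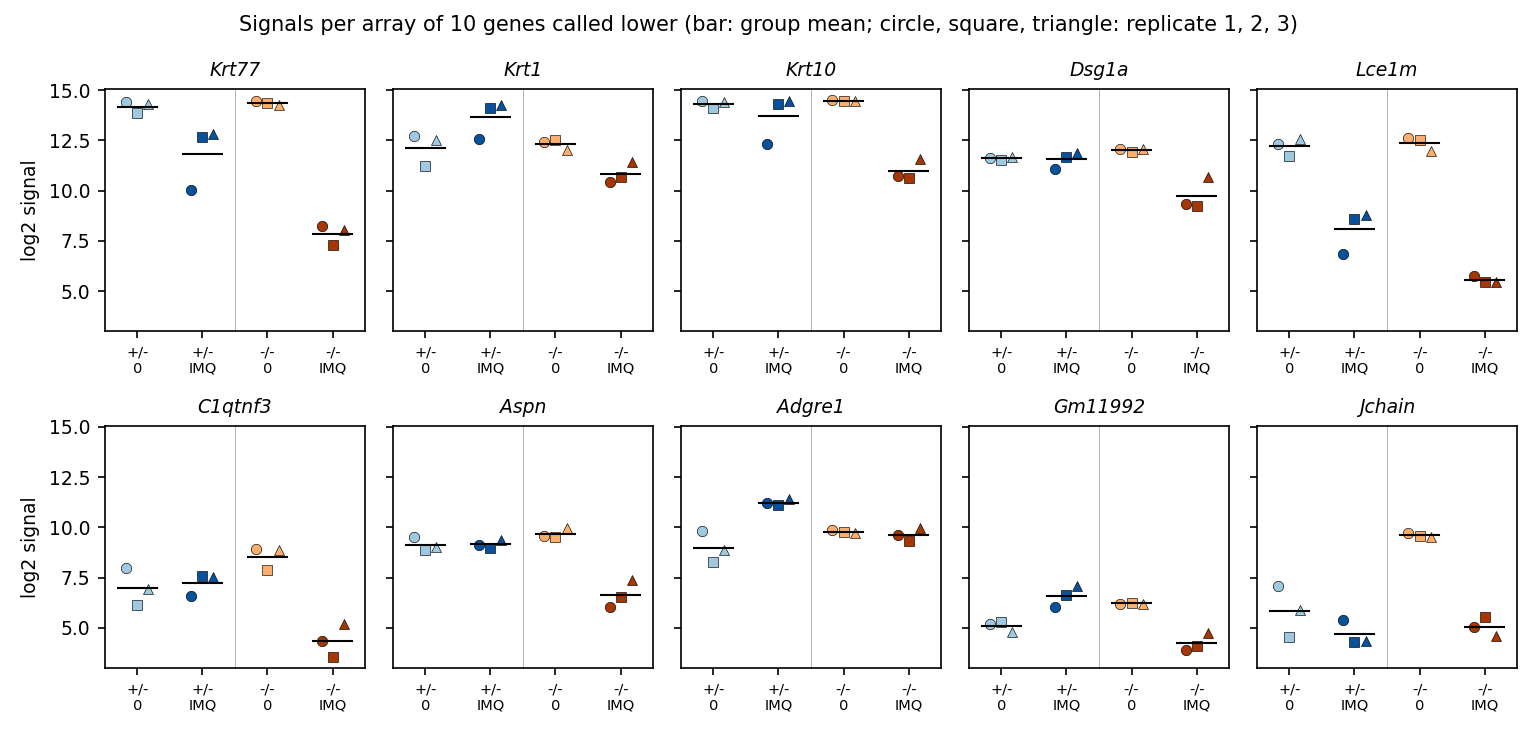
Log2 signal (y axis) on each of the 12 arrays for 10 genes called lower, by group (x axis: Ahr+/- untreated and IMQ, Ahr-/- untreated and IMQ), with bars at group means and symbols for replicates 1, 2 and 3. *Krt77*, *Krt10* and *Lce1m* differ between the treated groups, whereas *Jchain* differs between the untreated ones, at 4.53 to 7.08 in Ahr+/- and 9.5 to 9.73 in Ahr-/- skin.

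Some enzyme genes called lower were named after their values were seen, and no list was tested for them. *Lipk* and *Lipm*, epidermal lipases, had differences of -2.38 (adjusted p = 0.0401) and -1.97 (adjusted p = 0.0154). *Acer1*, the ceramidase of differentiated keratinocytes, had -1.46 (adjusted p = 0.0478), and *Them5*, a thioesterase, had -2.22 (adjusted p = 0.0404). Of the 12 fits that left out 1 array, *Lipm* was called in 10, *Lipk* and *Them5* in 3 each and *Acer1* in 2. None of these genes was called with the *Gapdh* or the hair follicle covariate. *Lipm* was at 9.9, 10.41 and 10.67 in IMQ-treated Ahr+/- and at 8.93, 8.41 and 9.16 in IMQ-treated Ahr-/- skin, the latter below the 10.17 to 10.9 of untreated skin. Called differences were also -1.53 for catalase (*Cat*), -1.22 for the sterol carrier gene *Scp2*, -1.72 for malic enzyme (*Me1*), -2.05 for acetyl-CoA synthetase (*Acss2*) and -1.39 for the sterol enzyme gene *Msmo1*. The lists of barrier lipids, sebaceous genes and lipid synthesis had 0 calls among 14, 9 and 15 members, with medians of -0.55, -0.94 and -0.52.

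*C1qtnf3*, which encodes a secreted protein related to adiponectin, had the largest negative called difference. Its signals were 7.97, 6.12 and 6.93 in untreated and 6.56, 7.57 and 7.52 in IMQ-treated Ahr+/- skin, and 8.92, 7.86 and 8.86 in untreated and 4.36, 3.56 and 5.19 in IMQ-treated Ahr-/- skin. The heterozygous groups overlapped and the knockout groups did not, and the difference of responses was -4.38 (standard error 0.7, adjusted p = 0.0154). *Aspn*, which encodes the small leucine-rich protein asporin, was at 8.86 to 9.98 on all 9 arrays other than IMQ-treated Ahr-/- skin and at 6.04, 6.56 and 7.38 there (difference -3.06, standard error 0.41, adjusted p = 0.00576). *Ogn*, *Omd* and *Ecm2* encode other leucine-rich proteins of the matrix and were named after their values were seen. Their differences of -2.44, -2.07 and -2.63 were called. In the 12 fits that left out 1 array, *Ogn* was called in 4, *Omd* in 3 and *Ecm2* in 4. None of these was called with the *Gapdh* covariate. Another probe set gave -3.28 for *Ogn* and -0.25 for *Ecm2*. *Lum* (-1.71, adjusted p = 0.0502) and decorin, *Dcn* (-0.44, adjusted p = 0.316), were not called. Of 17 genes of the dermal matrix list 0 were called, and its median was -0.16.

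Modulators of WNT and growth factor signalling called lower were *Dkk2* (-3.31, adjusted p = 0.0177), an antagonist of WNT receptors, *Sostdc1* (-1.89, adjusted p = 0.0223), an antagonist of BMP and WNT, *Fgfr3* (-1.3, adjusted p = 0.0354) and *Lrig1* (-1.26, adjusted p = 0.028), an inhibitor of EGF receptors. *Fgfr3* and *Lrig1* were named after their values were seen. Of the 12 fits that left out 1 array, *Dkk2* was called in 7, *Sostdc1* in 6, *Fgfr3* in 5 and *Lrig1* in 4. None of these genes was called with the *Gapdh* covariate. Other probe sets of *Lrig1* gave -1.27 and 0.33, and another of *Fgfr3* gave -1. *Sostdc1* was the 1 called of 14 genes of the WNT list, which does not hold *Dkk2*. The median of that list was -0.23, with 6 above 0 and 8 below. Of 10 genes of EGF receptors and their ligands 0 were called, and the median was 0.21. *Akr1c14*, a hydroxysteroid dehydrogenase gene, was lower after IMQ in both genotypes, at 7.71, 7.68 and 8.31 in Ahr+/- and 4.46, 4.58 and 5.79 in Ahr-/- skin from 9.03 to 11.28 untreated (difference -3.76, standard error 0.63, adjusted p = 0.0173). *Hpgd*, the enzyme that inactivates prostaglandins, was the 1 called of 14 prostanoid genes (-1.36, adjusted p = 0.0488).

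*Adgre1*, which encodes the macrophage marker F4/80, was at 11.21, 11.11 and 11.39 in IMQ-treated Ahr+/- skin and at 9.62, 9.31 and 9.99 in IMQ-treated Ahr-/- skin, where the untreated arrays had 8.3 to 9.85. It changed by 2.24 in Ahr+/- and by -0.15 in Ahr-/- skin (difference -2.39, standard error 0.42, adjusted p = 0.0223), and was called lower. It was the 1 called of 12 macrophage genes, 11 of which had negative differences, with a median of -0.73. *Adgre1* was called in 4 of the 12 fits that left out 1 array, and not with the *Gapdh* or the hair follicle covariate. The list median was -0.39 with the *Gapdh* covariate and -1.32 and -0.36 without replicates 1 and 2 of untreated Ahr+/- skin. It was -0.05 without that replicate 2 and replicates 1 and 2 of IMQ-treated Ahr-/- skin, a fit chosen after seeing the data. *Slamf9* and *Clec4b1*, receptors of macrophages and dendritic cells, had differences of -2.35 and -3.06 and were called, with changes in Ahr+/- skin of 2.31 and 1.68. Of 11 dendritic and Langerhans cell genes 0 were called (median -1.1), among them *H2-Aa* at -1.41 and *H2-Eb1* at -1.43.

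The difference of responses equals the genotypes' difference on day 2 minus that in untreated skin, and the 2 directions differed in how much came from each. For the genes called higher, the untreated difference had a median of -0.12 and the day 2 difference one of 1.65, and in 3 of 98 genes the untreated part was the larger. For the genes called lower, the untreated difference had a median of 0.53, with a range from 0.03 to 3.78, and the day 2 difference one of -1.14, and in 23 of 143 genes the untreated part was the larger. Over all genes these medians were 0.02 and 0.06. The same untreated arrays enter both quantities, so a high untreated Ahr-/- or a low untreated Ahr+/- signal by itself lowers the difference of responses.

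**Figure D5:**
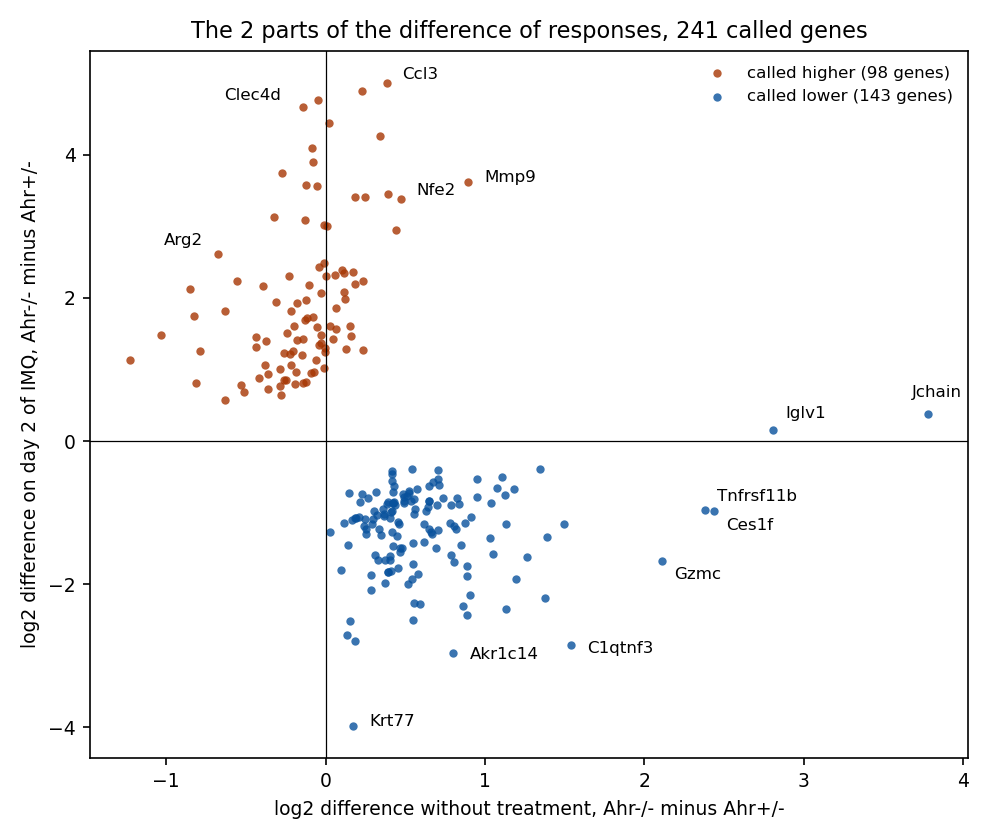
Log2 difference between Ahr-/- and Ahr+/- skin without treatment (x axis) and on day 2 of IMQ (y axis) for the 98 genes called higher and 143 called lower, where the difference of responses is y minus x. The genes called higher lie around 0 on the x axis, and *Jchain* and *Iglv1* lie far to the right, at untreated differences of 3.78 and 2.81.

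*Jchain*, the joining chain made by plasma cells, was at 7.08, 4.53 and 5.87 in untreated Ahr+/- and 9.73, 9.59 and 9.5 in untreated Ahr-/- skin, and at 4.3 to 5.56 on all 6 treated arrays (difference of responses -3.41, standard error 0.71, adjusted p = 0.0401). The treated groups overlapped and the untreated ones did not. *Ighm* had untreated signals of 10.62, 10.22 and 11.21 against 11.57, 11.64 and 12.39 (difference of responses -1.85, adjusted p = 0.0449). *Ighm* has 11 probe sets, and those other than the chosen one gave -2.74 to 0.23. Of these others 6 had the same sign, 2 of them at an unadjusted limma p under 0.05. *Jchain* and *Ighm* were the 2 called of 6 B cell genes, and *Cd79a* and *Ms4a1* had differences of -0.01 and 0.61. *Jchain* was called in 3 and *Ighm* in 4 of the 12 fits that left out 1 array, and neither was called with the *Gapdh* covariate, with the hair follicle covariate or with replicate 3 alone of the treated knockout. *Iglv1* was at 4.53 to 5.26 in untreated Ahr+/- and 7.33 to 7.97 in untreated Ahr-/- skin and at 4.22 to 5.1 on the treated arrays (difference of responses -2.66). Another probe set of *Iglv1*, chosen when sets that can match several transcripts were left out, gave 0.23.

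The granzyme gene *Gzmc*, *Tnfrsf11b*, which encodes the decoy receptor osteoprotegerin, and the carboxylesterase gene *Ces1f* also had large untreated parts. *Gzmc* was at 8.03, 5.05 and 5.75 in untreated Ahr+/- and 8.76, 8.4 and 8.01 in untreated Ahr-/- skin, and at 7.18, 6.96 and 7.05 against 4.99, 5.96 and 5.22 after IMQ (difference -3.78, adjusted p = 0.0409). It was the 1 called of 14 T cell genes, whose median was -0.15. *Tnfrsf11b* and *Ces1f* had untreated differences of 2.38 and 2.43, day 2 differences of -0.96 and -0.98, and differences of responses of -3.34 (adjusted p = 0.025) and -3.41 (adjusted p = 0.0149).

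Of 11 genes of the AhR pathway and its targets 0 were called, and the median difference was -0.26. *Cyp1a1*, the classic target, was at 8.47, 8.94 and 9.11 in IMQ-treated Ahr+/- and 8.21, 6.93 and 6.99 in IMQ-treated Ahr-/- skin, with 6.71 to 8.1 on the untreated arrays (difference -1.68, 95% interval -2.85 to -0.5, adjusted p = 0.14). The treated groups did not overlap, and replicate 1 of the knockout group was the highest of its 3 arrays. *Ahrr*, the AhR repressor gene, and *Aldh3a1* had differences of -1.49 (adjusted p = 0.122) and -1.27 (adjusted p = 0.188). *Cyp1b1*, *Nqo1* and *Tiparp* had -0.26, -0.31 and 0.44.

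Of 12 transcription factor genes linked to psoriasis, which were picked for their response to IMQ on these same arrays, 0 were called. *Junb* and *Fosl1*, AP-1 subunits, had differences of 0.89 (95% interval -0.05 to 1.83, adjusted p = 0.312) and 0.96 (0 to 1.92, adjusted p = 0.285), and *Cebpb* had 0.85 (0.37 to 1.33, adjusted p = 0.0803). *Junb* was at 8.72, 8.91 and 7.9 in IMQ-treated Ahr+/- and at 9.62, 9.95 and 8.91 in IMQ-treated Ahr-/- skin, so the treated groups met at 8.91. At these intervals, differences of responses of up to 1.83 for *Junb* and 1.92 for *Fosl1* are within the error. Of 19 AP-1 and immediate early genes 0 were called (median 0.19), and of 21 interferon-induced genes also 0 (median -0.13, from -1.69 for *Cmpk2* to 0.91 for *Oas2*). Of 10 mediators chosen because the authors had assayed them by qPCR, *Il1b* and *Il1r1* were called higher and *Krt10* lower. The qPCR in IMQ-treated skin was mainly at a later day than these arrays. *Il1r1* was assayed in isolated, unstimulated keratinocytes. Since the 10 genes were chosen for their behaviour in that work, they are no independent evidence of a direction.

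Hair follicle genes had large positive differences without a call. All 25 measured members were above 0, from 0.95 to 3.58, with a median of 2.31, and 0 of 25 were called. The median was 1.13 without replicate 2 of untreated Ahr+/- skin. Their mean signal was 7.82, 11.85 and 7.87 in untreated Ahr+/- skin, 5.75 to 7.04 in untreated Ahr-/- skin and 5.52 to 7.43 on the 6 treated arrays. *Shh*, a signal of the growing follicle, was at 4.66, 10.66 and 7.14 in untreated Ahr+/- skin and at 4.19 to 5.05 on the other 9 arrays. Melanocyte genes had a median of 1 and 0 of 10 called, with a mean signal of 9.78 on the same array and 5.93 to 7.22 on the others. Without that array, 134 genes were called higher and 121 lower, and with the hair follicle mean as a covariate 41 and 30.

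Of the 47 lists examined, 19 held at least 1 called gene and 28 held none. Together 24 of the 616 measured genes on any list were called higher and 12 lower, against 0.539% and 0.786% of all genes tested. The lists were chosen with earlier results of these data known. Among markers of other cells in skin, 0 of 12 endothelial, 0 of 8 mast cell, 0 of 10 basal epidermal and 0 of 3 erythroid genes were called, with medians of 0.33, -0.36, -0.16 and 0.63, and 1 of 14 adipocyte genes was, *Acvr1c* (-1.88), with a median of -0.55. The part of cell composition in the differences of the single genes was not tested.

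The calls rested on 1 probe set per gene, and other sets gave a partial check. For 38 genes called higher, 64 other sets existed, of which 58 had the same sign and 31 reached an unadjusted p under 0.05 in the same direction, with 0 in the opposite one. For 74 genes called lower, 122 other sets existed, of which 93 had the same sign and 64 reached that level in the same direction, with 1 opposite, a set of *Zfp54*. Among the genes called higher, 21 were called in each of the 12 fits that left out 1 array, and among those called lower 8. *Ppbp*, *Ccl4*, *Trem1*, *Cd177*, *Rrad*, *Nfe2*, *Osm*, *Plaur*, *Sycp2* and *Olfm4* were the 10 higher genes that were also called with the *Gapdh* covariate and with replicate 3 alone of the treated knockout, and *Gm11992*, a predicted gene, was the 1 lower gene. *Gm11992* was at 4.79 to 5.29 in untreated and 6.06, 6.64 and 7.11 in IMQ-treated Ahr+/- skin, and at 6.19 to 6.26 in untreated and 3.91, 4.08 and 4.75 in IMQ-treated Ahr-/- skin (difference -3.48, standard error 0.37, adjusted p = 0.00162).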

How the data were processed

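Expression was measured on 12 Affymetrix 3' arrays of total RNA from mouse skin, 3 in each of 4 groups of genotype and treatment. The deposited values are log2 signals that the authors made with RMA (background correction, quantile normalization and summary of probes) in the affy package (version not given in the sources used here). They range up to 14.98, and since single probes were not used here, the number of arrays limits the precision.

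Of 45101 probe sets, 64 were controls, 9160 had no gene, 932 had several genes and 34945 had 1 gene. Each of 18193 genes was represented by its brightest set, judged by the mean of all 12 arrays, which was a choice among several sets for 9010 genes. Probe set names came from GEO's platform annotation. A model with 1 mean per group was fitted to all genes with limma 3.58.1 in R 4.3.3 (8 residual and 4.44 prior degrees of freedom, both arms of both genotypes sharing 1 variance), the difference of responses was the contrast, and p-values were adjusted over all genes by Benjamini-Hochberg. A call required an adjusted p under 0.05 and a difference of at least 1.5-fold. The authors compared pairs of groups by rank products, which give no test of this difference. Tables and figures used Python 3.11.15 with pandas 2.3.3, numpy 2.4.6 and matplotlib 3.10.9, and the steps were tested on simulated data.

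The genes, the lists and the tests were chosen with earlier results of these data known. Genes were named by rule when they were among the 15 largest called differences in each direction, among up to 4 called members of a list with the smallest p-values (up to 2 members where none was called), or when they belonged to the AhR pathway or the transcription factors and mediators studied. Other genes in the text were named after their values were seen. Alternatives were a stricter threshold, other choices and summaries of probe sets, filters, scalings, priors and weights, a replicate block, covariates for RNA quality and hair follicle genes, and each array left out in turn.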

Additional observations from a re-analysis of the deposited data

Results flagged for a closer look

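The response to IMQ differed between the genotypes, by limma's test of the difference itself, for 98 genes in the higher and 143 in the lower direction (Ahr-/- minus Ahr+/-, log2, adjusted p under 0.05). Groups of 3 arrays were too small to test single arrays as outliers, and no explanation was weighed.

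Among genes of myeloid cells and neutrophils the differences were 4.81 for *Clec4d*, 4.81 for *Chil3*, 4.67 for *Acod1*, 4.43 for *Clec4e*, 4.02 for *Hdc*, 3.61 for *Olfm4*, 3.46 for *Trem1*, 3.23 for *Mcemp1*, 3.22 for *Cd177*, 2.72 for *Mmp9*, 2.53 for *Csf3r*, 2.3 for *Ngp* and 2.01 for *Pglyrp1*. Among cytokines, chemokines and receptors they were 4.62 for *Ccl3*, 4.17 for *Il1b*, 3.97 for *Ppbp*, 3.7 for *Ccl4*, 2.28 for *Osm*, 1.75 for *Il1r1* and 1.49 for *Tnf*. The other probe set of *Il1r1* gave 0.21. Among genes of wound repair, metabolism and other lists they were 3.92 for *Ankrd1*, 3.29 for *Arg2*, 2.48 for *Mmp10*, 2.23 for *Plaur*, 1.64 for *Timp1*, 1.31 for *Gsr* and 0.95 for *Bhlhe40*.

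In the lower direction, epidermal genes had -4.15 for *Krt77*, -2.98 for *Krt1*, -2.85 for *Krt10*, -2.66 for *Lce1m* and -2.23 for *Dsg1a*. Genes of immune cells had -3.78 for *Gzmc*, -3.41 for *Jchain*, -3.06 for *Clec4b1*, -2.39 for *Adgre1* and -1.85 for *Ighm*. Secreted and signalling proteins had -4.38 for *C1qtnf3*, -3.34 for *Tnfrsf11b*, -3.31 for *Dkk2*, -3.12 for *Pamr1*, -3.06 for *Aspn*, -1.89 for *Sostdc1* and -1.88 for *Acvr1c*. Enzymes and other genes had -3.76 for *Akr1c14*, -3.57 for *Aadacl2fm1*, -3.48 for *Gm11992*, -3.41 for *Ces1f*, -3.16 for *Cttnbp2* and -1.36 for *Hpgd*. The other probe set of *Cttnbp2* gave 0.28.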

How the results depend on the processing

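The total counts of called genes were within 1.5 times the reported 98 higher and 143 lower under 10 of the alternatives that kept all arrays, among them other choices of probe set, scalings, priors and weights per group, though counts within single lists moved further. 1 of these 10 dropped the fold minimum and gave the same 98 and 143, because that minimum removed no gene that passed on adjusted p. With an adjusted p under 0.01 they were 19 and 8, with array weights 930 and 1166, with the *Gapdh* 3'/5' covariate 11 and 1, with the hair follicle mean as a covariate 41 and 30, and with replicate 3 as the sole IMQ-treated Ahr-/- array 15 and 3, which is assumed to vary like the other groups. A fit without replicate 2 of untreated Ahr+/- and replicates 1 and 2 of IMQ-treated Ahr-/- skin, chosen after seeing the data, gave 25 and 7.

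Leaving out 1 array gave 22 to 295 genes higher and 9 to 688 lower. The higher and lower counts were 254 and 688 without replicate 1 of untreated Ahr+/- skin, 56 and 52 without its replicate 3, 22 and 9, 46 and 50, and 52 and 32 without replicates 1, 2 and 3 of untreated Ahr-/- skin, 138 and 259, 23 and 11, and 37 and 22 without replicates 1, 2 and 3 of IMQ-treated Ahr+/- skin, and 60 and 62, 41 and 26, and 295 and 323 without replicates 1, 2 and 3 of IMQ-treated Ahr-/- skin. The cause of these shifts was not tested.

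With the replicate number as a block the counts were 88 and 133. Correlations of same-numbered arrays, after subtracting group means, ran from -0.18 to 0.32, so the numbers were not taken to pair the samples. Centring on the array median moved the median over all genes from 0.055 to 0.097. Among the named genes that were called, *Iglv1* changed sign, at 0.23 without probe sets that can match several transcripts.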
